A study of Mus musculus with 6 samples.

Results

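The 2'-5'-oligoadenylate synthetase (OAS) genes were read in follicular helper T (Tfh) cells that lacked the ubiquitin ligases CBL and CBL-B. The members were the 6 rows named Oas1a, Oas1g, Oas2, Oas3, Oasl1 and Oasl2 among the 47729 gene rows of the deposited table, and 5 of the 6 passed the filter on low values. Tfh cells support antibody responses by helping B cells of the germinal centre. The double knockout group held 3 libraries labelled Cbl-/-Cbl-b-/-, and the control group held 3 libraries labelled wt ctrl. Both groups came from mouse spleen after an intraperitoneal injection of NP-OVA, a hapten coupled to ovalbumin, and were sorted by flow cytometry on CD4, TCR beta and high levels of both CXCR5 and PD-1. The labels do not say whether the deletions were limited to T cells, how old the mice were, or when after the injection the spleens were taken. The series asks how ICOS and the CBL proteins together shape the development of Tfh cells.

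OAS proteins are interferon-induced sensors of double-stranded RNA. On binding it, the catalytically active synthetases join ATP into short chains with 2'-5' bonds, called 2-5A. The second messenger 2-5A is known to set off the cutting of single-stranded RNA of the virus and of the host. The OAS-like proteins carry a synthetase-like domain followed by ubiquitin-like domains. Transcription of the family is known to follow interferon regulatory factors, which bind DNA repeats made of 2 GAAA half-sites that stand 2 bases apart.

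Exact repeats of this form stood in the 250 bases before the start of some members and not of others. Oas2, for which no RefSeq start was at hand, was not read. RefSeq (GRCm38.p6) gave a start for 5 of the 6 members, and the 250 bases before each start were searched on both strands for GAAA, any 2 bases and GAAA again (TTTC, any 2 bases and TTTC on the other strand). Oas3 held 1 match, and Oas1a and Oas1g held 2 overlapping matches each. Oasl1 and Oasl2 held no exact match, and looser forms of the repeat or sites farther away were not searched. Of 32851 promoters of the same length, 978 (2.98%) held at least 1 match. The regions shown are those of Oas3, the member with the strongest test, and of the close copies Oas1a and Oas1g. These regions were chosen because they hold the matches, which stand in capitals. All of them lie on the minus strand and read from 5' to 3' towards the start, at chr5:120777660-120777909 for Oas3, chr5:120907526-120907775 for Oas1a and chr5:120887614-120887863 for Oas1g.
Oas3: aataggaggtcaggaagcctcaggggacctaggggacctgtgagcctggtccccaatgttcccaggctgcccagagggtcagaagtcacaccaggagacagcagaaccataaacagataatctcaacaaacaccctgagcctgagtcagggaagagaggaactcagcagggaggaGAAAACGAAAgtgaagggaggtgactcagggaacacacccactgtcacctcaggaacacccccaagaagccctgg
Oas1a: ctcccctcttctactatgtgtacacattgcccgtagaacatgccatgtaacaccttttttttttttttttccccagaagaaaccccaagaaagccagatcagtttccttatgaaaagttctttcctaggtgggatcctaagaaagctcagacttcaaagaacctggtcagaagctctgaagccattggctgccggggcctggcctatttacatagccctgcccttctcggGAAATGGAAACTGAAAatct
Oas1g: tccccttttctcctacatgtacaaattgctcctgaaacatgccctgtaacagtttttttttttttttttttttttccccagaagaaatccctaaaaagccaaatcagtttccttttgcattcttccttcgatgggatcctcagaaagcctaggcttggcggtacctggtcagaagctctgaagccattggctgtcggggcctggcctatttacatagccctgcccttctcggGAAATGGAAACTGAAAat
The Oas3 match, GAAAACGAAA, began 75 bases before the start. In Oas1a the run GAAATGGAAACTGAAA began 20 bases before the start, and in Oas1g the same 16 bases began 18 bases before it. Oas1a and Oas1g were identical at 212 of 256 aligned columns (82.8%), gaps counted as columns. The form TTCNNNGAA, which STAT family factors are known to bind and which reads the same on both strands, was found in 7.02% of promoters and, among the members with a RefSeq start, in Oas1a alone, 98 bases before the start. It did not overlap the repeat. A match is a run of letters, and no binding was measured here.

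Each library held 23392254 to 38368885 reads assigned to genes. Values below are the authors' normalised read counts, which behave as the reads of each library divided by a single size factor, inferred from the values. Fold changes give the difference of mean log2(value + 1), double knockout minus control, which is too small for low values, and a gene is called changed where limma's p, adjusted over all 13602 genes kept, is below 0.05. Of these genes 398 (2.93%) were called, 252 (1.85%) higher and 146 (1.07%) lower in the double knockout, and the median log2 fold change over all of them was -0.0011. Cbl reads, totalled over the gene, were 3262, 3856 and 2221 in the double knockout libraries, against 12417, 12945 and 8614 in the controls (-1.88 ± 0.23 SE, limma adjusted p = 0.00888, and 0.0524 without control 1). Cblb was not called, and the deleted part of neither gene is stated in the sources used here. Xist was at 12769 to 18100 in the double knockout libraries and at 12.9 to 970 in the controls, while 4 Y-linked genes were at 0 to 7.16 in the double knockout libraries and at 933 to 3721 in the controls. Sex, read from these transcripts, followed genotype in all 6 libraries, so sex and genotype cannot be told apart in any difference below. None of the 7 Tfh defining markers tested was called, and their summed value was 197628 to 233086 in the double knockout and 219891 to 229218 in the control. DESeq2, an alternative test, called 1 of the 7 higher and 1 lower, as it did 662 and 436 of 13327 genes. The sum does not show markers that move apart.

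Every tested OAS member was higher on average in the double knockout, and 2 of the 5 tested, Oas3 and Oasl2, were called higher, against 1.85% of all genes tested. None was called lower. The groups did not overlap for 4 of the 5, with the double knockout higher, as for 12.3% of all genes tested. The median log2 fold change of the 5 was 1.54. The sixth member, Oas1g, had reads in the double knockout libraries alone. In sorted bulk cells, fewer cells of a type and less RNA per cell cannot be told apart.

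**Figure D1:**
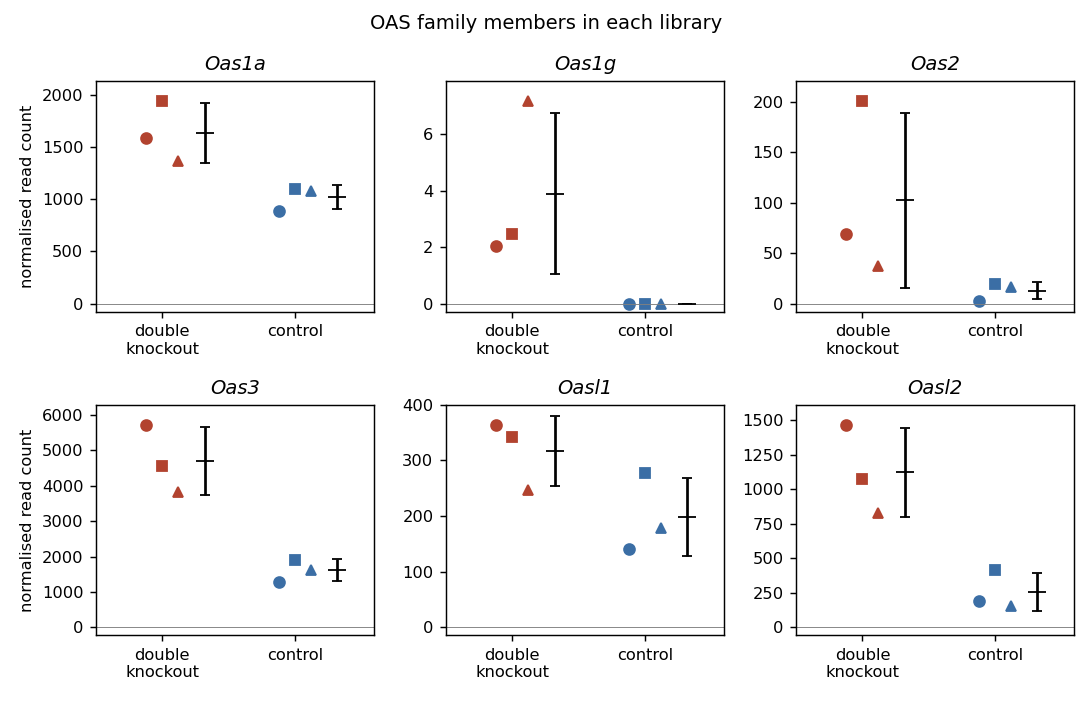
Normalised read count (y axis, a scale of its own for each gene) of the 6 OAS members in the 3 double knockout libraries (red) and the 3 controls (blue). Circles, squares and triangles are libraries 1, 2 and 3, and black bars are the mean ± SD. Oasl1 is the one member whose groups overlap, and the lowest double knockout library of Oas3 (3826) lies above the highest control (1915).

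Oas3 encodes the largest synthetase of the family, known for binding long double-stranded RNA and for making most of the active 2-5A in human cells. Its gene (ENSMUSG00000032661) lies on GRCm38 chromosome 5 from 120753098 to 120777661 on the minus strand. It stood at 5719, 4546 and 3826 in the double knockout libraries and at 1292, 1915 and 1624 in the controls. Every double knockout library was above every control. The log2 fold change was 1.54 ± 0.19 (SE, 95% interval 1.12 to 1.97), and Oas3 rose with a limma adjusted p of 0.00882. It ranked 47 by p and 314 by fold change among the 13602 genes. Oas3 stayed past the threshold with each of the 6 libraries left out in turn, at log2 fold changes of 1.39 to 1.68 and adjusted p of 0.00905 to 0.0453.

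Oas2 encodes a synthetase with a duplicated catalytic unit. Its gene (ENSMUSG00000032690, chromosome 5, 120730333 to 120749853, minus strand) lies next to Oas3. Oas2 was low, at 68.7, 200.7 and 37.6 in the double knockout libraries and at 3.08, 19.2 and 16.5 in the controls. The groups did not overlap, but double knockout library 2 was several times above the other double knockout libraries. The log2 fold change of 2.85 ± 0.78 (95% interval 1.06 to 4.64) was the largest of the 5 and the least precise, and it was not called (limma adjusted p = 0.101). DESeq2 on the recovered reads called it (2.99, adjusted p = 0.00157), as did the authors' deposited table (1.27, adjusted p = 0.000959) and limma with library weights (3.35, adjusted p = 0.0216). Leaving out each library in turn gave 2.12 to 3.39 and no call.

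Oas1a is the catalytically active mouse counterpart of human OAS1. Its gene (ENSMUSG00000052776, chromosome 5, 120896256 to 120907521, minus strand) had 1582, 1936 and 1367 in the double knockout libraries, against 888, 1098 and 1076 in the controls. The groups did not overlap. The log2 fold change of 0.67 ± 0.15 (95% interval 0.31 to 1.02) was not called (limma adjusted p = 0.0644). It was called with library weights (limma adjusted p = 0.0108), by DESeq2 (adjusted p = 0.00429), by the comparison in the authors' deposited table (0.0055 after adjustment) and without double knockout library 3 (limma adjusted p = 0.0447), at log2 fold changes of 0.62 to 0.78.

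Oas1g is a close copy of Oas1a (ENSMUSG00000066861, chromosome 5, 120876142 to 120887613, minus strand), and the 2-base shift of its upstream repeat is described above. It stood at 2.05, 2.46 and 7.16 in the double knockout libraries and at 0 in all 3 controls. These values are 13 reads in the double knockout libraries and none in the controls. With 3 reads over the control group as the limit that a count of 0 allows, the ratio is 3.65 after scaling by the summed size factors of each group. That limit covers the counting error of the 0 alone. No error was put on the 13 reads, so 3.65 is not a lower bound of the fold change. Oas1g did not pass the filter and was not tested. Of the stretches of 50 bases in annotated Oas1a transcripts 57.6% also occur in Oas1g transcripts, and 45.2% of those of Oas1g occur in Oas1a. The division of reads between these copies is uncertain, since the treatment of reads matching both is not stated in the sources used here. No stretch of 50 bases of Oas2, Oas3, Oasl1 or Oasl2 occurs in transcripts of another OAS gene.

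Oasl2 encodes an OAS-like protein that, in the mouse, keeps 2-5A synthetase activity. Its gene (ENSMUSG00000029561, chromosome 5, 114896936 to 114912234, plus strand) stood at 1465, 1075 and 825 in the double knockout libraries and at 193, 415 and 157 in the controls. The lowest double knockout library lay well above the highest control. Oasl2 rose by a log2 fold change of 2.22 ± 0.36 (95% interval 1.39 to 3.06, limma adjusted p = 0.0232). The call ended without double knockout library 1 (limma adjusted p = 0.113), without control 1 (0.101) or without control 3 (0.0557), while the log2 fold change stayed between 1.94 and 2.64 over the 6 fits.

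Oasl1 encodes an OAS-like protein without synthetase activity, known in the mouse for restraining translation of Irf7 mRNA. Its gene (ENSMUSG00000041827, chromosome 5, 114923240 to 114937915, plus strand) stood at 364, 342 and 246 in the double knockout libraries and at 140.5, 277 and 178 in the controls. Control 2 lay above double knockout library 3, so the groups overlapped. The log2 fold change was 0.71 ± 0.28 (95% interval 0.07 to 1.36, limma adjusted p = 0.249), with no call when any library was left out (0.49 to 0.98).

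The members shared an order of libraries in part. Control 2 was the highest control for Oas1a, Oas2, Oas3, Oasl1 and Oasl2, and it was also the control with the most Xist (970, against 53.3 and 12.9 in controls 1 and 3). Double knockout library 1 was the highest for Oas3, Oasl1 and Oasl2, and library 2 was the highest for Oas1a and Oas2. Without control 2 the members called were Oas3 and Oasl2 again. The part of this library's Xist reads in the OAS values was not tested.

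Levels of different genes were compared per kb of exon. Summed over the 6 members, normalised reads per kb were 2034, 2016 and 1502 in the double knockout libraries, against 739, 1029 and 897 in the controls (1851 ± 302 and 888 ± 145, SD, n = 3 each). In the double knockout Oas1a averaged 864 ± 152 per kb and Oas3 664 ± 135, then Oasl2 176 ± 50.6, Oasl1 122 ± 24.0, Oas2 23.0 ± 19.5 and Oas1g 1.66 ± 1.21. In the control the order was Oas1a at 542 ± 61.2, Oas3 at 228 ± 44.1, Oasl1 at 76.1 ± 27.0, Oasl2 at 40.0 ± 22.0 and Oas2 at 2.91 ± 1.94, with Oas1g at 0. Per kb, both groups thus had Oas1a and Oas3 on top and Oas2 and Oas1g at the bottom, with Oasl1 and Oasl2 changing places. Among neighbours in these orders, Oas1a and Oas3 in the double knockout, Oasl2 and Oasl1 in the double knockout and Oasl1 and Oasl2 in the control lay closer together than the sum of their SDs. The orders depend on the division by exon length. In shares of reads without that division, Oas3 averaged 59.6% and Oas1a 20.9% in the double knockout, against 52.0% and 33.3% in the control. Levels and shares of Oas1a and Oas1g also carry the uncertain division of reads between these copies.

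**Figure D2:**
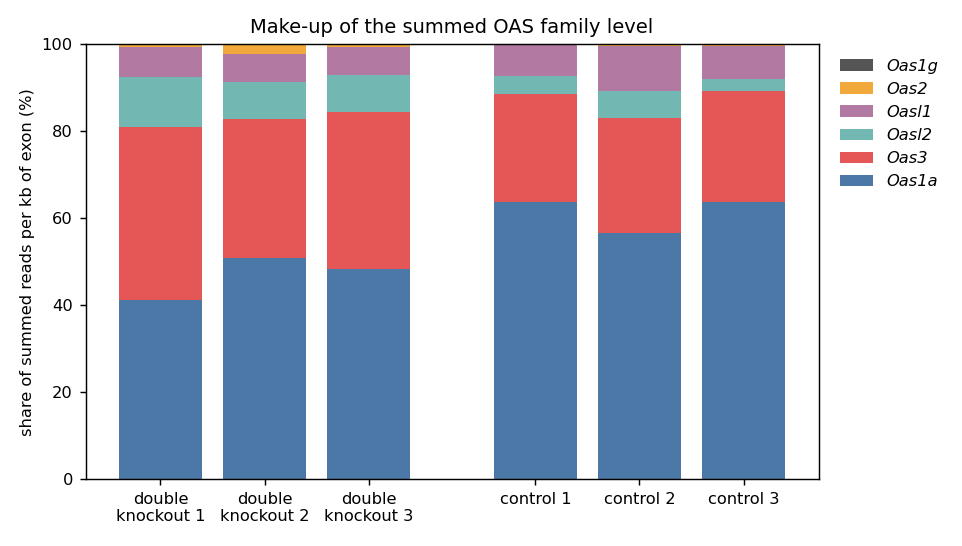
Share of each OAS member in the summed reads per kb of exon (y axis, percent) in the 3 double knockout libraries (left) and the 3 controls (right). Oas1a takes 41.3% to 50.9% in the double knockout libraries and 56.6% to 63.8% in the controls, and Oas3 takes 31.9% to 39.8% in the double knockout libraries and 24.7% to 26.3% in the controls.

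The make-up of the family differed between the groups in the same sense in every library. Oas1a made up 41.3%, 50.9% and 48.3% of the summed level per kb in the double knockout libraries, against 63.8%, 56.6% and 63.6% in the controls. Oas3 made up 39.8%, 31.9% and 36.0% in the double knockout libraries, against 24.7%, 26.3% and 25.6% in the controls. Oas1a thus took a lower share and Oas3 a higher one in each double knockout library. The share of Oasl2 was 11.3%, 8.37% and 8.62% in the double knockout libraries, against 4.09%, 6.33% and 2.75% in the controls. Oas2 took at most 2.24% of a double knockout library and at most 0.419% of a control, and the share of Oasl1 was lower in every double knockout library (6.28% to 6.86%) than in any control (7.29% to 10.3%). For each of the 6 shares the groups were fully separated, which gives the smallest p that 3 libraries against 3 allow (two-sided exact permutation test, p = 0.1, and 0.1 after adjustment over the shares). No share can therefore pass 0.05 in this design, and shares of 1 sum are not independent of each other. Shares of reads without division by exon length differed in the same directions.

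Ratios between members with related roles showed the same differences. Oas3 per kb was 0.964, 0.626 and 0.746 of Oas1a per kb in the double knockout libraries, against 0.388, 0.465 and 0.402 in the controls. Oasl2 per kb was 1.65, 1.29 and 1.37 times Oasl1 per kb in the double knockout libraries, against 0.561, 0.614 and 0.361 times in the controls. Per kb, Oasl2 thus lay above Oasl1 in every double knockout library and below it in every control (exact permutation p = 0.1 for each ratio, the smallest possible). The order in the controls rests on the division by exon length. Before that division, controls 1, 2 and 3 had Oasl2 at 193, 415 and 157 and Oasl1 at 140.5, 277 and 178.

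Of the other Oas1 copies, Oas1b and Oas1c had enough reads to be tested, and neither was called. Oas1b, a polymorphic pseudogene in the annotation and known for setting resistance to flaviviruses in mice, had 215, 274 and 177 in the double knockout libraries, against 126, 136 and 139 in the controls. The groups did not overlap (log2 fold change 0.71 ± 0.22, 95% interval 0.21 to 1.21), and it was not called (limma adjusted p = 0.136). Oas1c had 494, 450 and 319 in the double knockout libraries, against 353, 282 and 391 in the controls (0.29 ± 0.21, 95% interval -0.20 to 0.78, limma adjusted p = 0.566). Its groups overlapped. Oas1d was at 4.10 in double knockout library 2, at 1.84 in control 3 and at 0 in the other libraries. No read was assigned to Oas1e, Oas1f or Oas1h in any library.

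The genes tied to the breakdown and the restraint of 2-5A signalling did not pass the test. Abce1, a ribosome recycling factor also known to restrain the 2-5A pathway, differed by -0.09 ± 0.16 (95% interval -0.45 to 0.27). Pde12, a phosphodiesterase that degrades 2-5A, differed by 0.11 ± 0.13 (-0.18 to 0.40), and Akap7, whose central domain degrades 2-5A, by -0.21 ± 0.36 (-1.04 to 0.62). None of these 3 genes was called by limma (adjusted p from 0.732 to 0.842), and their intervals give the changes that these libraries leave possible.

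**Figure D3:**
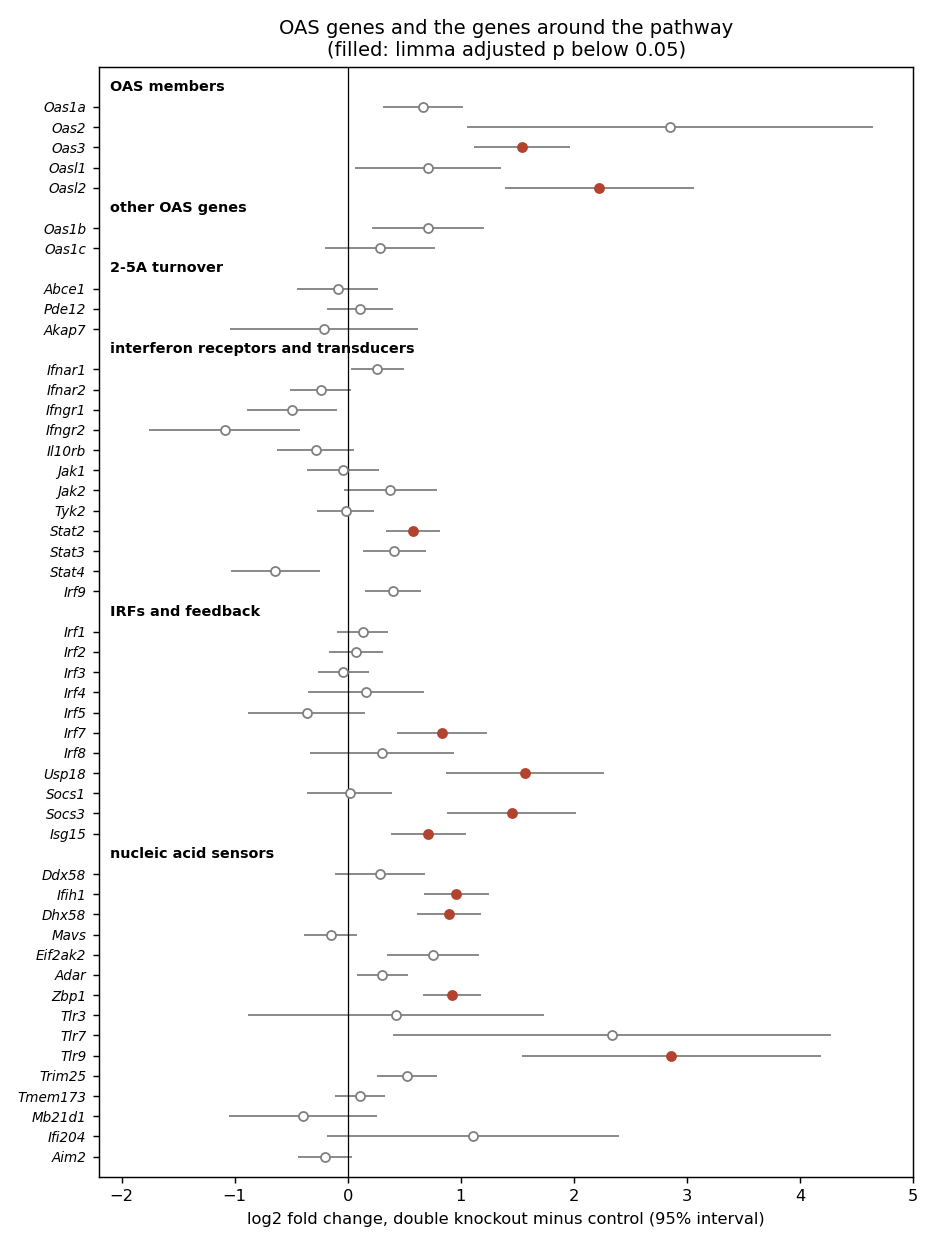
Log2 fold change, double knockout minus control (x axis), of every tested gene of 6 lists, with its 95% interval. Filled points passed limma's adjusted p of 0.05. The OAS members lie right of 0, the 2-5A turnover genes lie around it, and the filled points of the sensor, transducer and feedback lists are all higher in the double knockout.

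The synthetase genes lie in a cluster on chromosome 5, and the OAS-like pair lies apart from it. The end of Oasl1 and the start of Oas2 are 5792417 bases apart, Oasl2 and Oasl1 are separated by 11005 bases, and Oas2 and Oas3 by 3244 bases. Oas1c and Oas1b run in opposite directions from a gap of 120 bases. The region before the RefSeq start of Oas1c holds TTTCAGTTTCCATTTC, the reverse complement of the run upstream of Oas1a and Oas1g, so that on the strand of Oas1b it reads as in those genes.

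Of the 9 tested genes listed as lying beside the OAS loci, some of them at a distance, none was called higher and 2 were called lower. Over all genes tested these shares were 1.85% and 1.07%. Dtx1, which encodes the Notch regulator Deltex, lies 18405 bases from Oas2. It stood at 1710, 4602 and 2099 in the double knockout libraries and at 9484, 11582 and 12745 in the controls. It fell by 2.13 ± 0.33 on the log2 scale (limma adjusted p = 0.0191), and the call ended without double knockout library 1 or any one of the controls (adjusted p from 0.0584 to 0.0775). P2rx7, an ATP-gated ion channel, lies past the synthetase cluster, at the end away from Dtx1 and the OAS-like pair. P2rx7 is not adjacent to the cluster, since its middle lies 1928 kb from the middle of Oas2. It fell by 0.79 ± 0.10 (limma adjusted p = 0.0101), and its call ended without double knockout library 1 or control 1 (largest adjusted p = 0.0672). Between the synthetases and P2rx7, Rph3a had a log2 fold change of 1.31 ± 0.39 (limma adjusted p = 0.132) and Ptpn11, which encodes the phosphatase SHP2, of 0.67 ± 0.17 (adjusted p = 0.0862). The log2 fold changes of Rasal1, Ddx54, Sppl3, Mlec and P2rx4 were -0.86, -0.11, 0.01, 0.20 and 0.51, none called.

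**Figure D4:**
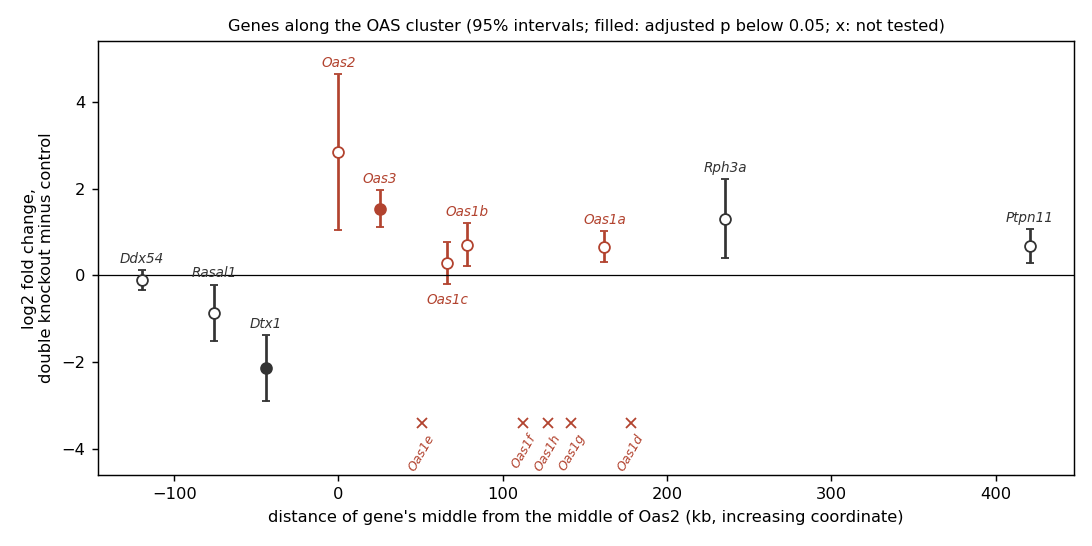
Log2 fold change, double knockout minus control, with 95% intervals (y axis) against the distance of each gene's middle from the middle of Oas2 (x axis, kb), with OAS genes in red and other genes in black. Filled points passed limma's adjusted p of 0.05, crosses at the bottom are genes not tested and have no value, and the called neighbour Dtx1 lies below 0 beside Oas2 and Oas3 above it. Genes farther away are not drawn, among them P2rx7, P2rx4 and the OAS-like pair with its neighbours.

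The genes around the pathway are given by lists of known genes. Of the 15 tested sensors of double-stranded RNA and other nucleic acids, 4 rose and none fell, against 1.85% and 1.07% of all genes tested. The median log2 fold change of the 15 was 0.52. Zbp1, a sensor of Z-form nucleic acid, rose by 0.92 ± 0.11 (limma adjusted p = 0.00882). Ifih1, which encodes the RNA helicase MDA5, rose by 0.96 ± 0.12 (adjusted p = 0.0118), and Dhx58, which encodes its cofactor LGP2, rose by 0.90 ± 0.12 (adjusted p = 0.0129). Tlr9, a DNA receptor of endosomes, rose by 2.86 ± 0.58 (adjusted p = 0.0418). These RNA and DNA sensors lost their calls without double knockout library 1 (adjusted p from 0.0539 to 0.176), and 1 of the 4, Zbp1, kept it without control 1. The call of Tlr9 also ended without double knockout library 3 (adjusted p = 0.0825) or control 3 (0.0641).

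Of the 12 tested interferon receptors and signal transducers, 1 rose and none fell, against 1.85% and 1.07% of all genes tested. The median of the 12 was -0.03. Stat2, which carries the signal of the type I interferon receptor, rose by 0.57 ± 0.10 (limma adjusted p = 0.0307). Irf9, known to form a DNA-binding complex with STAT2, was at 3800, 4487 and 3611 in the double knockout libraries, against 2892, 3011 and 3066 in the controls. Its groups did not overlap, and it was not called (0.40 ± 0.11, limma adjusted p = 0.0952). Ifngr2, a chain of the type II interferon receptor, and Stat4, a transducer of interleukin 12 signals, had fold changes of the opposite sign at a like adjusted p (-1.09 ± 0.29, limma adjusted p = 0.0953, and -0.64 ± 0.17, adjusted p = 0.0982). Over the list, 4 genes had no overlap with the double knockout higher and 4 with the double knockout lower, against 12.3% and 11.3% of all genes tested. Genes of the list were called lower in some alternatives, 2 each by DESeq2, with library weights, in the authors' deposited table and without double knockout library 2, and 1 without control 3. The Stat2 call ended with any library other than double knockout library 3 left out (adjusted p from 0.0592 to 0.149).

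Of the 11 tested interferon regulatory factors and feedback inhibitors, 4 rose and none fell, against 1.85% and 1.07% of all genes tested. The median of the 11 was 0.16. Irf7, the factor known to amplify interferon transcription, stood at 2785, 3077 and 1933 in the double knockout libraries and at 1359, 1556 and 1380 in the controls (0.83 ± 0.17, limma adjusted p = 0.0457). Usp18, which removes ISG15 from proteins and blocks the type I interferon receptor, rose by 1.57 ± 0.30 (adjusted p = 0.0363), and Isg15 itself rose by 0.71 ± 0.14 (adjusted p = 0.0419). Socs3, an inhibitor of cytokine receptor signalling, rose by 1.45 ± 0.25 (adjusted p = 0.0256). All of these 4 calls ended without double knockout library 1, control 1 or control 2 (adjusted p from 0.0623 to 0.187). Irf7 and Usp18 kept theirs only without double knockout library 3, and Isg15 lost it in all 6 fits.

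Of 39 other interferon-stimulated effector genes tested, 10 rose and none fell, against 1.85% and 1.07% of all genes tested. A positive fold change was seen for 36 of the 39, as for 6782 of all 13602 genes. The median of the 39 was 0.64. Parp12, an antiviral mono-ADP-ribosyltransferase, stood at 921, 940 and 911 in the double knockout libraries and at 314, 444 and 399 in the controls (1.27 ± 0.15, limma adjusted p = 0.00888). Ifi27l2a, a small interferon-induced membrane protein gene, rose by 1.20 ± 0.15 (adjusted p = 0.0111). Mx1, which encodes a dynamin-like antiviral GTPase, rose by 2.04 ± 0.27 (adjusted p = 0.0123), and Ifi44 by 2.69 ± 0.38 (adjusted p = 0.0140). Without double knockout library 1 only 1 of the 10 calls remained, Mx1, and without control 1 the calls that remained were 2, Parp12 and Ifi27l2a. Without control 2 the calls that remained were 5. DESeq2 called 21 of these genes higher, and 23 were called higher with library weights. Of the 32 effector genes with a RefSeq start, 14 held a match to the GAAA repeat in the 250 bases before it, against 2.98% of all promoters. The list was made of known interferon-stimulated genes, so this share says nothing about the difference between the groups. Called and uncalled genes were not compared for matches.

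Of 9 interferon genes looked at, 8 had no reads. No read was assigned to Ifnb1, 4 Ifna genes, Ifnk, Ifnl2 or Ifnl3 in any library, which allows at most 3 reads in each group of 104919813 double knockout and 89509242 control reads. Ifng, the type II interferon gene that Tfh cells are known to transcribe, had 336, 218 and 122 in the double knockout libraries, against 193, 148 and 70.7 in the controls. The groups overlapped (0.71 ± 0.46, limma adjusted p = 0.495).

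Markers of other cells were set beside these values. None of the 12 myeloid and dendritic cell markers was called or at 0 in every library, 4 of them had enough reads to be tested, and their summed value was 83.2 to 188 in the double knockout libraries and 137 to 269 in the controls. Siglech, which marks plasmacytoid dendritic cells, the known source of type I interferon, was at 0.89 or below in the double knockout libraries and at 2.05 or below in the controls. None of 7 tested B cell markers was called, with sums of 20143 to 28501 in the double knockout libraries and 22020 to 25284 in the controls. Some alternatives did call B cell markers. DESeq2 and the authors' deposited table each had 1 higher and 1 lower, library weights 1 higher and 2 lower, and quantile scaling 1 lower. A sum can hide such opposite shifts. Of 7 tested markers of natural killer and innate-like T cells, 1 rose and 1 fell, against 1.85% and 1.07% of all genes tested. Among these 7, 5 had a positive fold change and 2 a negative one. The sum of all 8 was 6480 to 14026 in the double knockout libraries and 3193 to 3887 in the controls. In double knockout library 2 Trdc alone was 12060 of a sum of at most 14026, so the sum does not speak for the other markers. Trdc, the constant segment of the T cell receptor delta chain, stood at 6352, 12060 and 5425 in the double knockout libraries and at 999, 902 and 815 in the controls (3.05 ± 0.27, limma adjusted p = 0.00303). Klrb1c, which encodes the receptor NK1.1, fell by 1.78 ± 0.36 (adjusted p = 0.0428, lost in 4 of the 6 fits with a library left out). Double knockout library 2 had the most Trdc and the most Oas2, and the part of cells with Trdc in the OAS values was not tested.

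The genes whose profiles lay closest to each member over the 6 libraries were read as a description. Likeness was the root mean square difference between log2(value + 1) profiles, each centred on its own mean, so that 0 means the same pattern. The 6 libraries share the difference between the groups, and among 13602 genes some lie close to any profile. For Oas1a the closest were Spryd7 (0.0617), B230359F08Rik (0.0620), Oas1b (0.0735), Slfn1 (0.0864) and Xaf1 (0.0922). For Oas3 they were Ndrg1 (0.0847), Treml2 (0.128), BC049352 (0.150), Ahr (0.161) and Prelid2 (0.173), and for Oasl2 B930095G15Rik (0.206), Fxyd2 (0.231), Ifi44 (0.275), Coro2a (0.286) and Gm6086 (0.301). Another OAS gene thus stood among the closest of Oas1a alone. For Oasl1 they were Mapkapk5 (0.0893), Gm8066 (0.112), Lmntd2 (0.121), Gm12250 (0.168) and 4930518I15Rik (0.168). No gene lay close to Oas2, whose nearest were Rps15a-ps2 (0.566), Trdv5 (0.641), Ednrb (0.706), Pdgfb (0.708) and Prdm1 (0.709). Between members, Oas1a and Oasl1 were closest (0.247) and Oas1a and Oas2 farthest apart (1.38).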

How the data were processed

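RNA of 6 libraries of sorted Tfh cells was measured, 3 per genotype. The deposited values are a normalised signal, described by the authors as counts normalised relative to library size. That each library was scaled by a single size factor was inferred from the values. GRCm38, DESeq2 1.12.3, featureCounts 1.4.6 and STAR 2.5.1b appear in the submitters' processing notes with no role stated. The annotation, the strand setting and the handling of multi-mapping reads are not stated in the sources used here. The authors' deposited comparison holds log2 fold changes, a test statistic (score) and p-values, used as an alternative only.

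All values (100%) were whole multiples of 1 read within a tolerance of 0.001, so reads were recovered. Library sizes limit values of a few reads to counting precision. Libraries of a group differed by more than sampling noise in every pair (10.8 to 96.8 chi-square units per degree of freedom). The labels do not say that samples were separate mice, so p-values reflect only how these samples spread, which may be technical.

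Genes at 10 or more in at least 3 libraries were kept (13602). The test was limma-trend 3.58.1 (R 4.3.3) on log2(value + 1), two-sided, with Benjamini-Hochberg adjustment over all kept genes and a threshold of 0.05, checked on simulated data. Alternatives were edgeR 4.0.16 and DESeq2 1.42.0 on the recovered reads, other pseudocounts, filters and scalings, library weights, a replicate block, and each library left out. Exon lengths and coordinates are of GENCODE M21. Oas2 overlaps Gm43068 and Oasl1 overlaps Gm13822 on the opposite strand, whose mean values were 0 and 4.98, and without a known strand setting such reads cannot be told apart. Promoters are those of RefSeq on GRCm38.p6.

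The members and all 15 gene lists were chosen with earlier results of these data known. Named genes were the members, Cbl and Cblb, of each list up to 4 called genes by smallest p (or up to 2 as values where none was called), short lists and the loci's neighbours in full, and the 5 genes most like each member. Irf9, Ifngr2, Stat4, Siglech and the interferon genes without reads were named outside this rule, after their values were seen. The neighbour Cfap73 was not analysed here, and some genes of the pathway are not reported here.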

Additional observations from a re-analysis of the deposited data

How the results depend on the processing

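In every alternative that gave a value, the tested OAS members and the 29 other called genes that were followed kept their direction, and of 481 values of those 29 genes 400 kept the call and 81 lost it. Oas3 was called in all alternatives. Among the members, 4 were called higher with library weights, with DESeq2 and in the authors' deposited table, against 2 in the reported fit. The added calls were Oas1a (log2 fold changes 0.73, 0.67 and 0.62) and Oas2 (3.35, 2.99 and 1.27). The authors' fold changes were smaller than the reported ones for every tested member, as for Oasl2 (1.64 against 2.22). How the authors computed them is not stated in the sources used here, so they may be on another scale. When single libraries were left out 1 to 3 members were called, with Oas1a at 0.53 to 0.78 and Oasl2 at 1.94 to 2.64, and the count over all genes was 58 to 498, against 398. That count was 1368 with library weights, 1098 with DESeq2 and 993 in the authors' deposited table. Fits with fewer libraries have less power, and the cause of the other shifts was not tested. The replicate block gave 265 genes and called Oas3 (limma adjusted p = 0.0306) and Oasl2 (0.0330) again. Same-numbered libraries deviated together only weakly (correlations of 0.0739, 0.0538 and 0.0924, each the highest for its libraries, a hint from the data and not from the design), so the numbers were not taken as pairs. Oas1g gave a value only without the filter (limma adjusted p = 0.101) and in the authors' deposited table (log2 fold change 0.24, p = 0.137 before adjustment), and a filter at 50 removed Oas2. Depth limits Oas1g, with 13 reads in all, and Oas2 in the controls.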
